A study of Danio rerio with 6 samples.

Results

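Claudins are membrane proteins that span the membrane repeatedly and join neighbouring cells at tight junctions. Their extracellular loops meet across the gap between the cells and either seal it or form a pore that lets chosen ions and water through. Each epithelium or endothelium uses its own mixture, and fish carry more claudin genes than mammals. In the zebrafish larva they close the skin, the gut, the vessels, the brain ventricles and the inner ear.

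The claudin genes described here were the rows of the deposited tables whose symbol starts with cldn in lower case, without the myelin claudin cldnk, and with a value of at least 1 in 3 or more libraries. There were 27 such genes, and all 27 passed that filter on low values, among 26082 genes that passed it of 31452 genes listed. A further 14 claudin rows fell outside this rule: 10 carry a symbol in capitals and 4 are claudins by their current gene name only. Genome positions are chromosomes of the Zv9 build, as the tables give them.

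The RNA came from whole zebrafish embryos, 4 days post fertilization. In the morphants (glut12 MO, 3 libraries) a morpholino directed at the splicing of glut12 was injected, and the controls (Control MO, 3 libraries) received a control morpholino. A morpholino is an antisense oligomer that acts for a limited time and does not alter the gene itself. The gene glut12, listed as slc2a12, encodes a sugar transporter, and the title of the study names heart failure and a diabetic phenotype. Each library came from a pool of 10 embryos. The labels name no strain, morpholino dose or clutch, so all p-values rest on differences among pools that may be in part technical. Because whole embryos were used, fewer cells of a type and less RNA per cell cannot be told apart.

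Values are normalised read counts, that is reads per gene after division by a size factor of the library and rounding by the authors. They were not divided by transcript length, so the order of the genes by value is not an order of transcript levels. Value triplets are given in the order of replicates 1, 2 and 3. The worth of 1 read in each library, read from the low values, put the depth at 9490000 to 15180000 reads in morphants and at 7550000 to 11480000 in controls. Control 1 was the shallowest library and stood apart: over 15942 genes its log2 values correlated with the other controls at r = 0.961 and r = 0.955, against r = 0.987 between those libraries, where genes are not independent replicates. Markers of skin, gut, vessel, kidney, ear, brain, liver, muscle and lens were all read in all groups, and of the entries found none was at 0 in all libraries. The targeted gene slc2a12 had values of 98, 97 and 90 in morphants and 160, 145 and 143 in controls (log2 fold change -0.65 ± 0.13 SE, limma adjusted p = 0.158).

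No claudin gene passed the test over all genes. In the limma fit with Benjamini-Hochberg adjustment, 0 of 27 claudins were called higher and 0 lower at an adjusted p of 0.05, where 0.023% of all genes tested were called higher and 0% lower. The lowest adjusted p of a claudin was 0.158. At an unadjusted limma p of 0.05 there were 2 higher and 3 lower claudins, where 8.99% of all genes were higher and 6.93% lower. The groups did not overlap for 6 claudins, where they did not overlap for 21.8% of all genes. The 6 were cldn5a and cldn19, higher in morphants, and cldn11b, cldni, cldnf and cldn7b, lower in morphants. With equal library totals cldni, cldnf and cldn7b overlapped between the groups and the other 3 did not. That left 2 higher and 1 lower, where 20.0% of all genes were higher and 5.06% lower without overlap. With the deposited values and both directions together, the claudins stood near the background of all genes.

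The sizes of the differences were small for most claudins. The median log2 fold change was -0.12 over the 27 genes and 0 over all genes tested, and 20 claudins were negative and 7 positive, where 49.5% of all genes were negative. Without control 1 the median was -0.06 and 16 of the 27 were negative. Scaling the libraries to equal totals moved the all-gene median to 0.11, with 34.8% of all genes negative. At that scaling the claudin median was -0.01 and 14 of the 27 were negative. For 16 of the 27 the 95% interval of the difference lay within a 1.5-fold change in either direction, which held for 39.9% of all genes. The other 11 were cldn11b, cldn5a, cldn19, cldnf, cldna, cldnj, cldn15b and 4 genes with means under 10, cldnd, cldng, cldn10 and cldn10l2. For these a 1.5-fold change could not be bounded at this depth and spread.

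**Figure D1:**
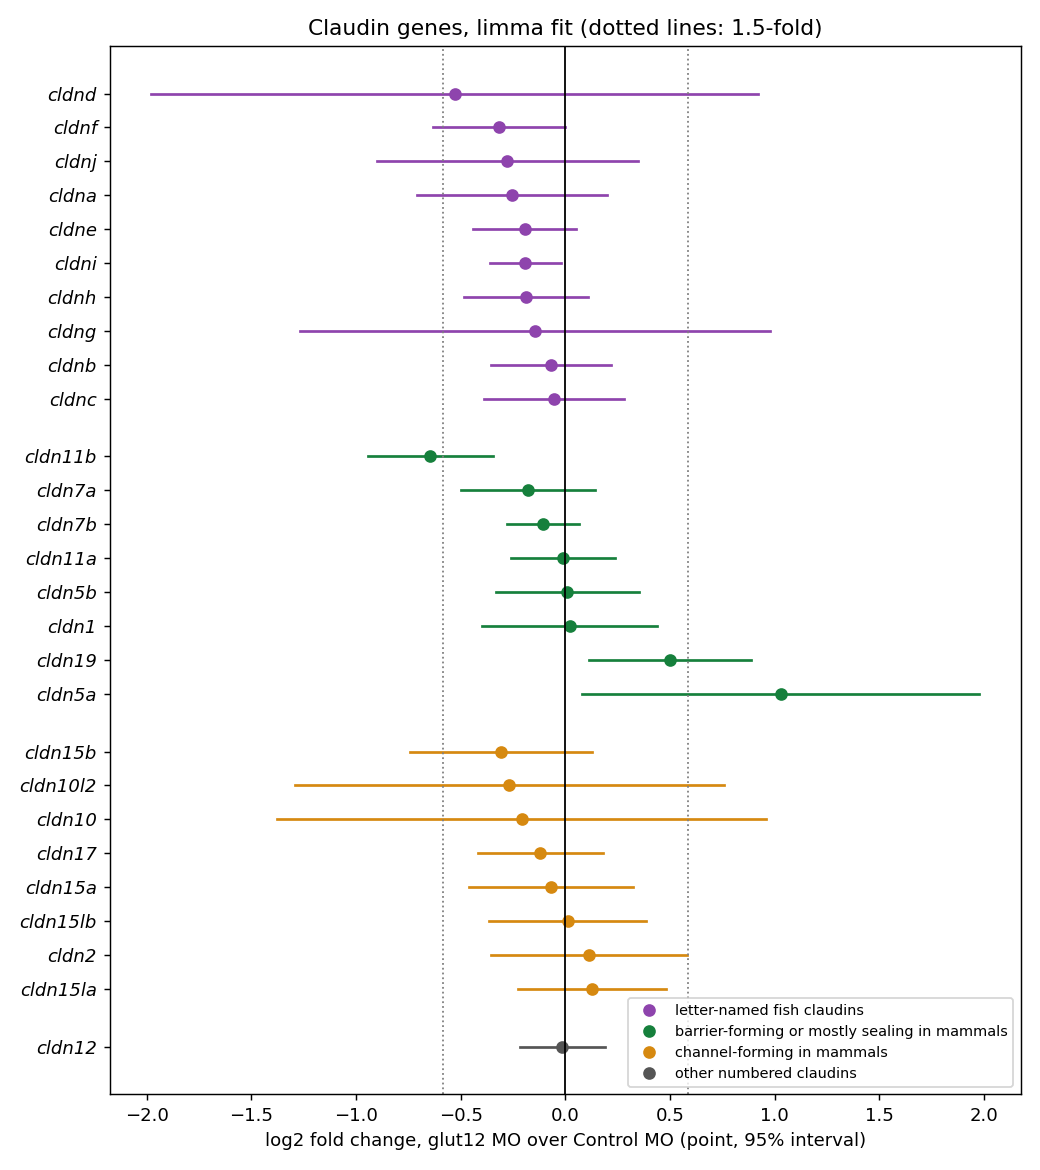
Log2 fold change of glut12 MO over Control MO for the 27 claudin genes on the x axis, with 95% intervals from limma, in 4 groups by name and by role in mammals; dotted lines mark a 1.5-fold change. The intervals of cldn11b, cldni and cldnf lie below 0 and those of cldn19 and cldn5a above it, and the widest intervals belong to genes with few reads.

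The sealing claudins held the largest differences in both directions. In mammals the relatives of these 8 genes mostly tighten the junction. Their median was 0.00, with 4 negative and 4 positive. Under an unadjusted limma p of 0.05 there were 3 of the 8, where 15.9% of all genes lay under it. The groups did not overlap for 4 of the 8, where they did not overlap for 21.8% of all genes. In so small a group the distance from these shares was not tested. Here cldn11b (ENSDARG00000030723, chromosome 24) had values of 99, 107 and 100 in morphants and 145, 173 and 163 in controls. All 3 morphant pools lay below all 3 control pools. The means were 102 ± 4.36 in morphants and 160 ± 14.2 in controls (SD, n = 3 per group). The log2 fold change was -0.64 ± 0.13 (SE), with a 95% interval of -0.94 to -0.34, and missed the threshold over all genes (limma adjusted p = 0.158). Mammalian CLDN11 builds the tight junctions of central myelin. Without control 1 the log2 fold change was -0.71 (limma adjusted p = 0.165), and over the alternatives the limma adjusted p lay between 0.0371 and 0.573. The lowest of these came with library weights estimated by limma, the one setting in which cldn11b passed.

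The near relative cldn11a (chromosome 2) had overlapping groups. Its values were 355, 319 and 299 in morphants and 347, 333 and 300 in controls. The log2 fold change was -0.01, with a 95% interval of -0.26 to 0.24. Other genes of myelin were read in the same libraries, and those given here were picked after their values were seen. Values of further myelin genes are not given. The myelin claudin cldnk had 125, 128 and 112 in morphants and 201, 160 and 174 in controls. Myelin basic protein mbpb had 1083, 1018 and 1005 in morphants and 1225, 1123 and 1175 in controls, and mbpa had 385, 560 and 651 in morphants and 707, 514 and 639 in controls. Of the 19 neuroepithelium and brain markers tested, which include these 2 basic protein genes, 16 were negative with a median log2 fold change of -0.18, which was -0.14 without control 1 and -0.07 with equal library totals. The summed level of that list was 32447 to 33761 in morphants and 36738 to 36949 in controls, and its part in the values of cldn11b and cldn5a was not tested.

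The brain barrier claudin cldn5a (ENSDARG00000043716, chromosome 8) had the largest positive log2 fold change of the 27. In zebrafish it seals the neuroepithelium so that the brain ventricles can fill. Its values were 124, 152 and 134 in morphants and 30, 100 and 96 in controls. The groups did not overlap, but control 1 lay far under the other control pools, at about 19 reads. With all libraries the log2 fold change was 1.03 ± 0.41 (SE; 95% interval 0.08 to 1.98, limma adjusted p = 0.291). Without control 1 it was 0.47 (limma adjusted p = 0.255).

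Its relative cldn5b (chromosome 10) marks vascular endothelium. It had 256, 213 and 179 in morphants and 231, 199 and 208 in controls, so the morphant pools enclosed the control pools. The log2 fold change was 0.01, with a 95% interval of -0.33 to 0.35. The summed level of the 28 vascular endothelium markers was 5761 to 5869 in morphants and 5704 to 5925 in controls, and their median log2 fold change was -0.02.

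The third claudin of this group with a difference under an unadjusted p of 0.05 was cldn19 (ENSDARG00000044569, chromosome 11). In mammals CLDN19 works in the kidney tubule, in Schwann cells and in the retinal pigment epithelium. Its values were 151, 164 and 147 in morphants and 87, 130 and 113 in controls, and all morphant pools lay above all control pools. The means were 154 ± 8.89 in morphants and 110 ± 21.7 in controls (SD, n = 3 per group). The log2 fold change was 0.50 ± 0.17 (SE; 95% interval 0.11 to 0.89, limma adjusted p = 0.241). It was 0.34 without control 1 (limma adjusted p = 0.328), which had the lowest value here too. The summed level of the pronephros markers was 7577 to 8756 in morphants and 8074 to 8358 in controls, with a median log2 fold change of -0.01.

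**Figure D2:**
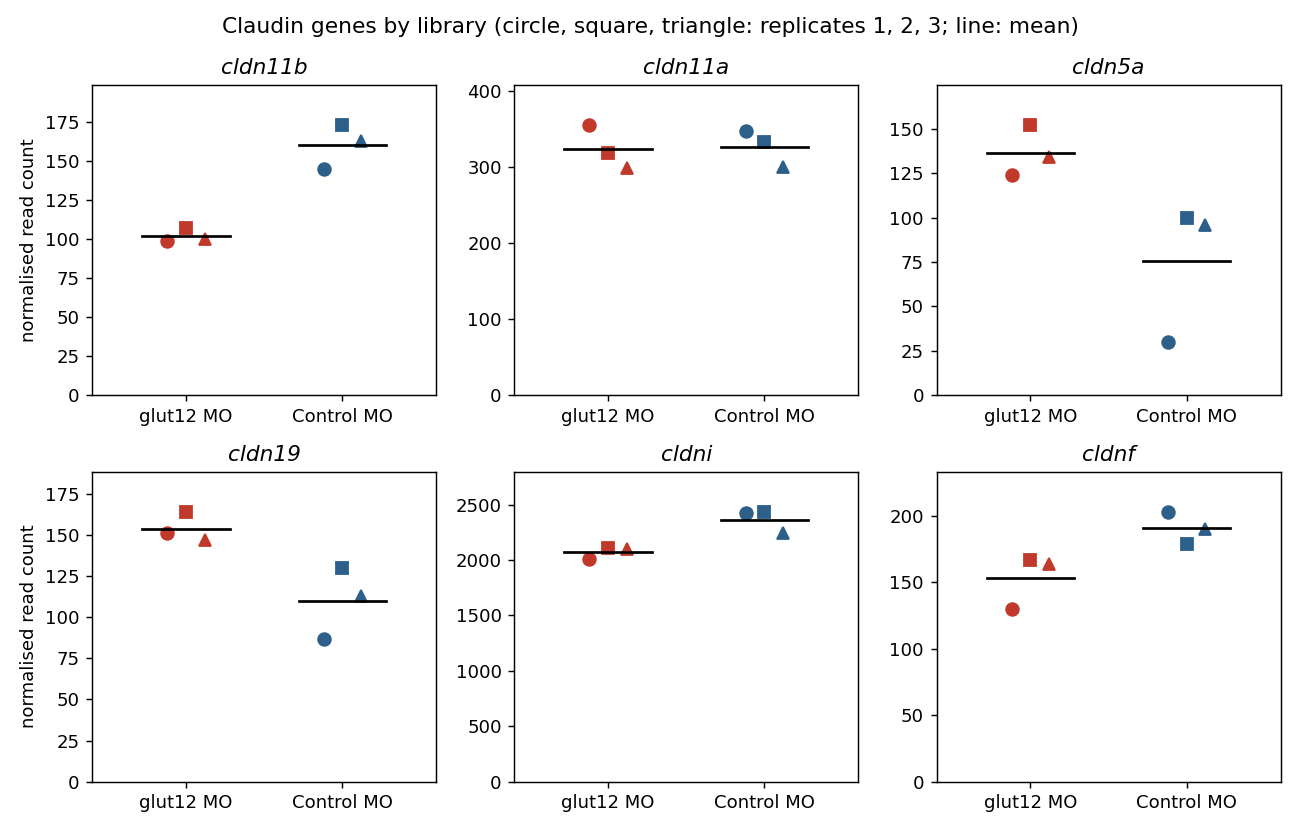
Normalised read counts of 6 claudin genes by library, glut12 MO left and Control MO right; each point is 1 pool of 10 embryos and the line is the group mean. For cldn11b, cldni and cldnf all morphant points lie below all control points, for cldn5a and cldn19 all lie above, and for cldn11a the groups overlap; the control circle at 30 in the cldn5a panel is control 1.

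The remaining sealing claudins showed narrower differences. Cldn7b (chromosome 10), of a claudin found in many epithelia, had 883, 904 and 876 in morphants and 992, 961 and 918 in controls. The groups did not overlap, yet the log2 fold change was -0.11 ± 0.08 (SE, limma adjusted p = 0.508) and it was 0.01 with equal library totals. Its relative cldn7a (chromosome 7) had 584, 421 and 458 in morphants and 538, 614 and 496 in controls, with overlap. Cldn1 (chromosome 2), whose mouse relative is needed for the water barrier of the skin, had 303, 249 and 270 in morphants and 273, 345 and 207 in controls. The morphant pools of cldn1 lay inside the range of the controls, and its log2 fold change was 0.02 (95% interval -0.40 to 0.44).

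The letter-named claudins, which were named in fish, were 10 genes without a call. All 10 had negative log2 fold changes, with a median of -0.19. With equal library totals cldnb and cldnc were positive and the median was -0.08, where the all-gene median was 0.11. Without control 1 the same 2 genes were positive and the median was -0.14. At an unadjusted limma p of 0.05 there were 2 of the 10, cldni and cldnf, both lower. Of all genes, 6.93% were lower and 8.99% higher at that threshold.

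The claudin with the most reads was cldni (ENSDARG00000054616, chromosome 3), with 2006, 2111 and 2097 in morphants and 2423, 2432 and 2240 in controls. The groups did not overlap. The means were 2071 ± 57.0 in morphants and 2365 ± 108 in controls (SD, n = 3 per group). This was a log2 fold change of -0.19 ± 0.07 (SE, limma adjusted p = 0.283). With equal library totals it was -0.08 (limma adjusted p = 0.618), the groups overlapped and the unadjusted limma p was above 0.05. Cldnf (ENSDARG00000043133, chromosome 15) had 130, 167 and 164 in morphants and 203, 179 and 190 in controls, again without overlap. Its log2 fold change was -0.32 ± 0.14 (SE, limma adjusted p = 0.312), and -0.27 without control 1, where it no longer lay under an unadjusted limma p of 0.05. With equal library totals it was -0.20 and the groups overlapped.

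Cldnf lies in a run of neighbours. In the RefSeq gene table of the GRCz12tu assembly, cldnj, cldne, cldnf and cldna are 4 consecutive protein-coding genes on chromosome 15. Cldne, which is expressed in the outer layer that covers the early zebrafish embryo, had 854, 997 and 989 in morphants and 1206, 1085 and 966 in controls. Morphants 2 and 3 exceeded control 3, so the groups overlapped. Cldna had 53, 55 and 52 in morphants and 75, 51 and 68 in controls, with control 2 under every morphant pool. Cldnj, needed in zebrafish for the ear stones to form, had 21, 16 and 16 in morphants and 26, 20 and 19 in controls. Of 26 otic and lateral line markers tested, 19 were negative with a median of -0.10 (0.01 with equal library totals). Their summed level was 15686 to 16394 in morphants and 19782 to 21141 in controls. A sum, here and for the other lists, weighs the entries with the highest values most, so it can differ more than the median does. The part of otic and lateral line cells in the values of cldnj and cldnb was not tested. The log2 fold changes of the 4 neighbours were -0.28 for cldnj, -0.20 for cldne, -0.32 for cldnf and -0.26 for cldna. Without control 1 they were -0.15, -0.12, -0.27 and -0.14 in that order. Close copies in such runs can share reads, and the authors' treatment of shared reads is not stated.

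The second run, of 7 consecutive claudin genes on chromosome 21 in the same table, holds 4 of the letter-named genes. Cldnb, which marks the migrating lateral line primordium, had 595, 585 and 572 in morphants and 696, 655 and 504 in controls. Control 3 lay below every morphant pool, and the log2 fold change was -0.07 (95% interval -0.36 to 0.22). Cldnh, now named cldn3c, had 617, 729 and 743 in morphants and 944, 729 and 718 in controls, where control 1 alone was high. Its log2 fold change was -0.19, and -0.06 without control 1. Cldnc, now named cldn3d, had 248, 311 and 321 in morphants and 346, 260 and 308 in controls, a log2 fold change of -0.05 that was 0.04 without control 1. The last, cldnd, had 1, 0 and 1 in morphants and 0, 3 and 2 in controls, which is a few reads per library, and cldng on chromosome 1 had 1, 4 and 1 in morphants and 2, 2 and 2 in controls. No difference was detectable at this depth for cldnd and cldng.

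Cldne and cldnb are also expressed in the embryonic skin. Of the 30 periderm and epidermis markers tested, 24 were negative with a median log2 fold change of -0.25. Under an unadjusted limma p of 0.05, 10 were lower and 0 higher, where 6.93% of all genes were lower and 8.99% higher. The summed level of these markers was 206210 to 265546 in morphants and 254987 to 333534 in controls. Without control 1 the median of these markers was -0.21, and with equal library totals -0.13. The shift was not particular to skin: the medians were -0.26 for skeletal muscle, -0.31 for lens and -0.18 for notochord and pharynx markers. For the ionocyte, intestine, vascular endothelium, pronephros and liver lists they lay between -0.03 and -0.01. Under an unadjusted limma p of 0.05 the liver list still had 4 lower and 0 higher of 18. The ionocyte list had 6 lower and 3 higher of 35. The intestine, vascular endothelium and pronephros lists had 2, 2 and 1 lower and 1, 2 and 2 higher, in that order. The part of the skin in the values of the letter-named claudins was not tested. Among 35 ionocyte genes 19 were negative and 16 positive. The groups did not overlap for 7 lower and 5 higher ones, where they did not overlap for 21.8% of all genes. Of the 35, 1 was called, where 0.023% of all genes were called higher and 0% lower. It was the epithelial calcium channel gene trpv6, with 713, 965 and 916 in morphants and 369, 375 and 324 in controls (log2 fold change 1.27 ± 0.13 SE, limma adjusted p = 0.0394, and 0.110 without control 1).

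The pore-forming claudins held no gene under an unadjusted limma p of 0.05, where 15.9% of all genes lay under it. For a group of 8 genes a count of 0 is near that share. These 8 genes were grouped by symbols whose mammalian namesakes let ions or water pass between cells. One of them, cldn17, is named cldn8.3 in the current RefSeq table, and mammalian CLDN8 is counted among the sealing claudins. There were 5 negative and 3 positive, with a median log2 fold change of -0.09, and 4 negative and 3 positive with a median of -0.07 without cldn17. Without control 1 the 8 genes were 4 negative and 4 positive with a median of 0.03, and with equal library totals also 4 and 4 with a median of 0.02. Among the gut claudins, cldn15a (chromosome 7), which helps a single gut lumen to form in zebrafish, had 141, 202 and 190 in morphants and 182, 213 and 161 in controls. Cldn15la (chromosome 2), a gene of the intestinal epithelium, had 459, 543 and 622 in morphants and 600, 455 and 437 in controls. Cldn15lb (chromosome 15), a gene of the liver and its ducts, had 124, 135 and 170 in morphants and 162, 128 and 134 in controls. The groups overlapped for all 3 genes.

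The log2 fold changes were -0.07 for cldn15a, 0.13 for cldn15la and 0.01 for cldn15lb, and -0.08, 0.27 and 0.11 in that order without control 1. In cldn15la and cldn15lb the order of the morphant pools was alike, with morphant 1 lowest and morphant 3 highest. The gut marker fabp2 had that order too, with 1221, 1687 and 2210 in morphants and 2244, 1581 and 1606 in controls. In the controls, fabp2, cldn15la and cldn15lb were each highest in control 1. This pattern was not particular to these genes. The letter-named cldnh and cldnc also had morphant 1 lowest, morphant 3 highest and control 1 the highest control. Cldn15a had another order, with its highest values in morphant 2 and control 2. Fabp2 was picked after its values were seen, and the order of the other intestine markers is not given here. The summed intestine markers were 70469 to 80060 in morphants and 72025 to 77439 in controls, with a median log2 fold change of -0.01, which was 0.16 without control 1 and 0.10 with equal library totals. The summed liver markers were 55777 to 66760 in morphants and 62871 to 70168 in controls, also with a median of -0.01 (0.10 with equal library totals). The part of gut and liver RNA in these values was not tested.

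Cldn15b (chromosome 5) had 85, 135 and 104 in morphants and 117, 136 and 143 in controls, a log2 fold change of -0.31 ± 0.19 (SE, limma adjusted p = 0.452). It was -0.15 without morphant 1, the lowest pool, and -0.48 without morphant 2, where the unadjusted limma p was under 0.05 and the limma adjusted p was 0.575. Cldn2 (chromosome 21), whose mammalian relative forms a pore for cations and water, had 89, 88 and 78 in morphants and 93, 88 and 59 in controls. Cldn17 (chromosome 15) had 401, 352 and 463 in morphants and 497, 414 and 407 in controls. The groups overlapped in each of these genes. The low genes cldn10 (4, 3 and 6 in morphants and 8, 7 and 2 in controls) and cldn10l2 (2, 3 and 3 in morphants and 3, 2 and 6 in controls) had no difference detectable at this depth.

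Cldn12 (chromosome 16), of a widely expressed claudin that stands apart from the rest of the family in sequence, is in neither role group. Its values were 411, 405 and 390 in morphants and 391, 399 and 430 in controls. The log2 fold change was -0.02, with a 95% interval of -0.22 to 0.19.

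The ratio of related claudins within a library does not depend on how the libraries are scaled, apart from the 1 added to each value. For cldn11b over cldn11a it was 0.281, 0.338 and 0.337 in morphants and 0.420, 0.521 and 0.545 in controls. The groups did not overlap, and the mean log2 ratio differed by -0.63 (exact two-sided permutation p = 0.1, the smallest that 3 against 3 libraries allow, and 0.375 adjusted over 5 pairs). Without control 1 the difference was -0.75. By itself the ratio sets the genes against each other and does not say which of them differs. The pairs were chosen after the values were seen, when cldn11b already separated the groups. This difference repeats the log2 fold changes of -0.64 for cldn11b and -0.01 for cldn11a, so it is not separate support.

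For cldn5a over cldn5b the ratio was 0.486, 0.715 and 0.750 in morphants and 0.134, 0.505 and 0.464 in controls. Morphant 1 lay between controls 2 and 3, so the groups overlapped (exact permutation p = 0.2). The difference in mean log2 ratio was 1.02, and 0.40 without control 1. For the other 3 pairs, cldn7b over cldn7a, cldn15a over cldn15b and cldn15la over cldn15lb, it was 0.07, 0.24 and 0.11, and the groups overlapped in each (exact permutation p = 0.7, 0.3 and 0.3).

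**Figure D3:**
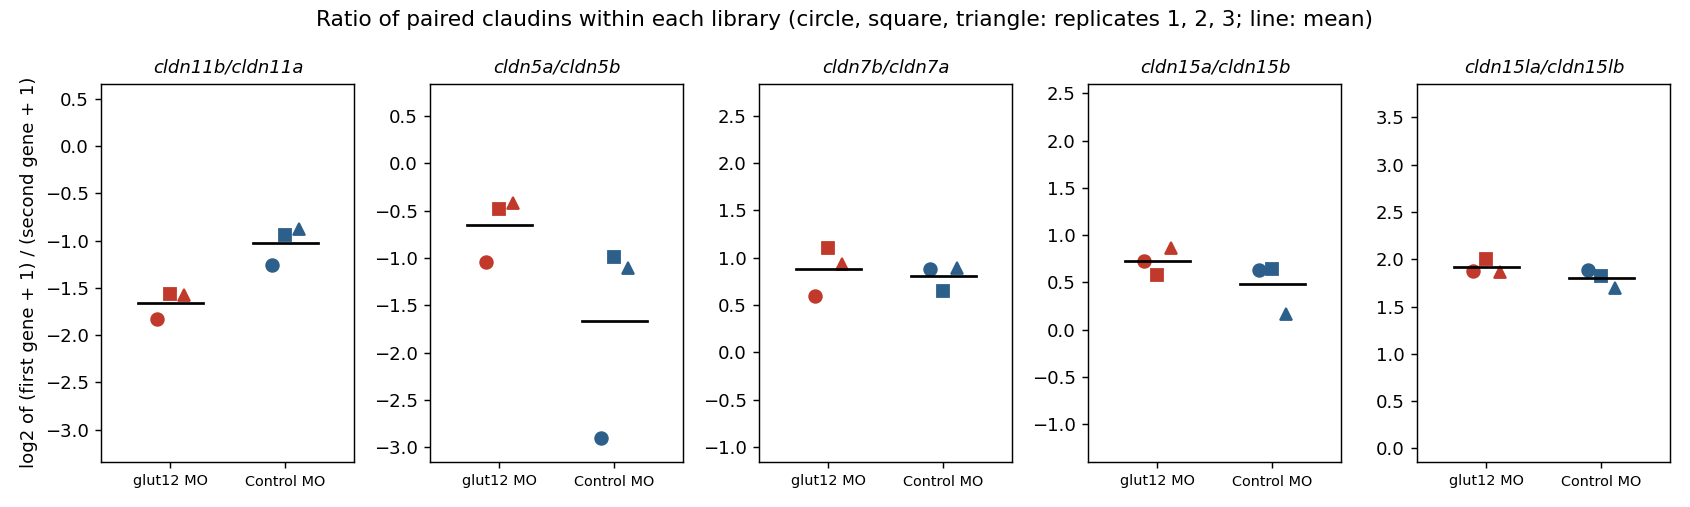
Log2 ratio of 2 related claudin genes within each library, with 1 added to each value, glut12 MO left and Control MO right; points are libraries, lines are group means and each panel spans the same range of log2 units. The morphant points lie below the control points for cldn11b over cldn11a only, and the control circle in the second panel, control 1, lies far below the other points.

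Control 1 was more often the highest than the lowest control among claudins. Among the 23 claudins with a mean of at least 10, control 1 was the highest control for 14 and the lowest for 5, and among the 21387 genes tested with such a mean it was the highest for 38.0% and the lowest for 39.2%. Its log2 value lay above the mean of controls 2 and 3 in 16 and below it in 7, with a median of 0.14 and a range of -1.67 (cldn5a) to 0.43 (cldn15la). The summed values of the 27 claudins were 8997, 9370 and 9445 in morphants and 10617, 10113 and 9297 in controls. Control 3 thus lay between the morphants, and the groups overlapped. As a share of the library total the sums were 0.0837%, 0.0901% and 0.0896% in morphants and 0.0903%, 0.0883% and 0.0840% in controls.

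**Figure D4:**
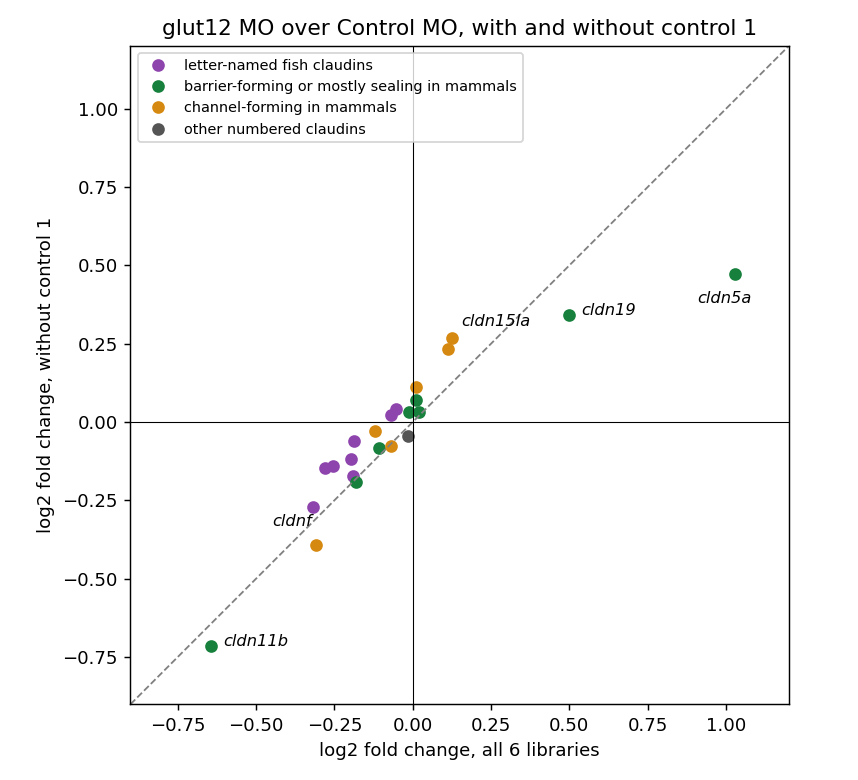
Log2 fold change of glut12 MO over Control MO for the 23 claudin genes with a mean of at least 10, from all 6 libraries on the x axis and without control 1 on the y axis; the dashed line marks equal values. The value of cldn5a drops to 0.47 without control 1, against 1.03 with it, and that of cldn11b is -0.71 without it, against -0.64 with it.

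The proteins that work with claudins gave no call either. Of 55 tight junction partners listed, 42 were found, and 0 passed over all genes in limma in either direction. Their median log2 fold change was 0.05, with 17 negative and 25 positive. Under an unadjusted limma p of 0.05 there were 4 higher and 3 lower, where 8.99% of all genes were higher and 6.93% lower. The groups did not overlap for 10 of the 42 partners, where they did not overlap for 21.8% of all genes. In both counts the partners stood near the background of all genes. The median was 0.01 without control 1 and 0.17 with equal library totals. The scaffold genes tjp1a, tjp2a, tjp2b and tjp3, which tie claudins to actin, overlapped between the groups. For tjp1a the values were 1944, 1992 and 1859 in morphants and 1600, 2072 and 1984 in controls. Occludin, the first tight junction membrane protein known, is encoded here by oclna, with 598, 534 and 555 in morphants and 656, 630 and 590 in controls, and by oclnb, with 295, 300 and 264 in morphants and 388, 285 and 326 in controls. The groups overlapped for both occludin genes.

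The partner with the lowest p was marveld3, which encodes a relative of occludin, with 102, 155 and 124 in morphants and 65, 74 and 82 in controls. All morphant pools lay above all control pools, and the log2 fold change was 0.76 ± 0.19 (SE, limma adjusted p = 0.192). Next came ildr1a, of the angulin family found where 3 cells meet, with 205, 206 and 210 in morphants and 361, 293 and 226 in controls. Its log2 fold change was -0.47 (limma adjusted p = 0.248), and -0.31 without control 1. The junctional adhesion molecule gene f11r had 536, 584 and 628 in morphants and 799, 685 and 649 in controls, and the atypical protein kinase C gene prkcz had 106, 127 and 137 in morphants and 92, 98 and 90 in controls. These 2 genes also did not overlap between the groups, with log2 fold changes of -0.28 and 0.39 (limma adjusted p = 0.272 and 0.275).

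In the adherens junction and desmosome list 18 genes were tested, 9 negative and 9 positive, with a median of 0.00 and 0 calls over all genes. At an unadjusted limma p of 0.05 there were 2 lower and 2 higher, where 6.93% of all genes were lower and 8.99% higher. The lower genes of this list were epcam and dsg2. Epcam, whose mammalian protein binds claudin-7, had 1560, 1500 and 1607 in morphants and 2571, 1796 and 2325 in controls (log2 fold change -0.50, limma adjusted p = 0.197). It also stands in the periderm list. The desmosomal cadherin gene dsg2 had 616, 772 and 737 in morphants and 857, 907 and 936 in controls. Higher were the desmoplakin gene dspa, with 1549, 1577 and 1727 in morphants and 1169, 1463 and 1434 in controls, and the alpha-catenin gene ctnna1, with 1869, 1890 and 1744 in morphants and 1463, 1702 and 1605 in controls. All 4 genes separated the groups, and all 4 missed the adjusted threshold. In the whole list the groups did not overlap for 8 of the 18 genes, 6 lower and 2 higher in morphants. They did not overlap for 21.8% of all genes, so in this count, with the deposited values, the list stood above the background of all genes. The direction depended on the scaling. With equal library totals 6 were higher and 1 lower at an unadjusted limma p of 0.05. At that scaling 4588 of all 26082 genes lay under it in either direction. The median was then 0.11 for the list and 0.11 for all genes. The size of that excess was not tested.

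**Figure D5:**
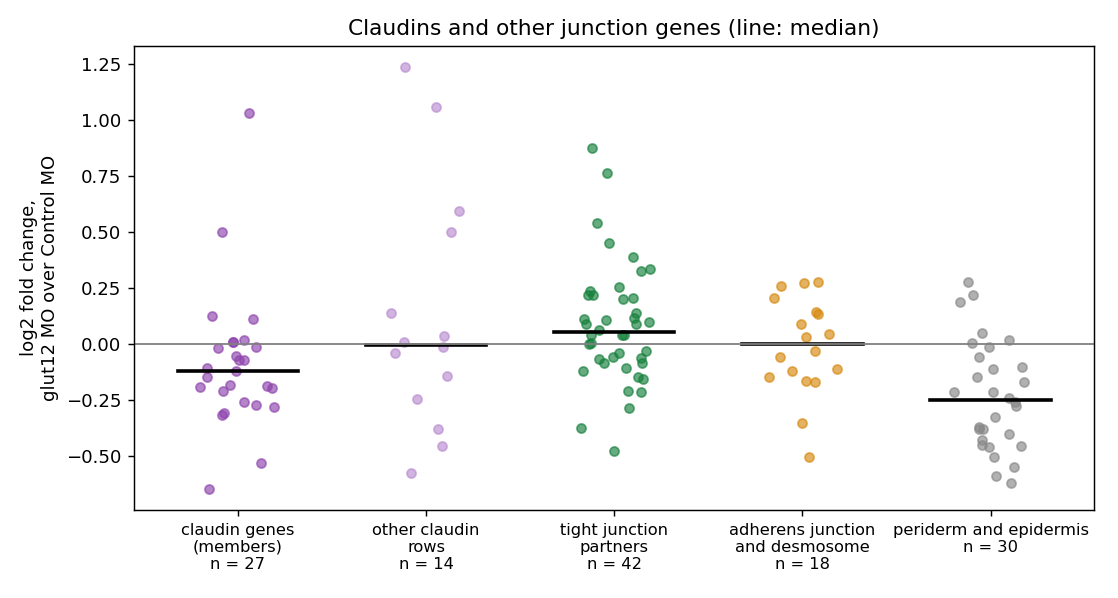
Log2 fold change of glut12 MO over Control MO for each gene in 5 lists, where a point is a gene and the line the median; n is the number of genes tested. The median is -0.12 for the 27 claudins, 0.00 for the 14 other claudin rows, 0.05 for the tight junction partners, 0.00 for the adherens junction and desmosome genes and -0.25 for the periderm and epidermis genes.

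The 14 claudin rows outside the naming rule showed the same absence of calls. Their median log2 fold change was 0.00, with 7 negative and 7 positive. Of these rows 1 lay under an unadjusted limma p of 0.05, where 15.9% of all genes did. That row was one of 2 rows of the claudin domain-containing gene CLDND1. On chromosome 1 it had 202, 213 and 211 in morphants and 89, 179 and 164 in controls (log2 fold change 0.59 ± 0.24 SE, limma adjusted p = 0.295). As for cldn5a, control 1 was by far the lowest library, and without it the log2 fold change was 0.28. The other CLDND1 row, on chromosome 7, had 249, 194 and 186 in morphants and 346, 254 and 225 in controls, with control 1 the highest library (log2 fold change -0.38, limma adjusted p = 0.351).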

How the data were processed

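Each deposited file gives, per the labels, the values of 1 library for 31452 Ensembl genes with chromosome and symbol. Zv9 is the build named, per the submitters' processing notes. Which aligner, counter and strand setting were used is not given in the sources used here. Deposited values were treated as a score, namely reads divided by a size factor and rounded to whole numbers by the authors: low whole numbers are left out or used doubly at a regular step, and, per the file headers and closing lines, size factors are named without values. Rounding prevents recovery of exact reads in the deeper libraries, so no count test was run. The step that best matched the usage of whole numbers under 150 in each library was 0.708, 0.721 and 1.11 per read in morphants and 1.56, 0.997 and 1.08 in controls.

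The 26082 genes with a value of 1 or more in 3 or more libraries were compared on log2(value + 1) by limma 3.58.1 (R 4.3.3). The model held group alone, with a mean-variance trend and two-sided Benjamini-Hochberg adjustment over all genes at 0.05. This scale understates the change of low genes. Intervals are at 95%. The members, lists, role groups and tests were chosen with earlier results of these data known. Per-library values are given for claudins that separate the groups at an unadjusted p under 0.05, those with the highest means and those with a known role, and the remaining claudins were added after their values were seen, as were cldnk, the myelin genes, fabp2, oclna, oclnb and the tjp genes. The pairs of related genes were also chosen then. Alternatives were 2 other scalings, other filters and pseudocounts, no trend, library weights, leaving out 1 library at a time, and a block for the replicate number. List entries were matched by symbol, in the files or as the gene IDs are named today. On data simulated for the 26082 genes at these depths, 5 runs recovered 12.8% of genes with a 1.5-fold change, 77.9% at 2-fold and 100% at 4-fold. This was for genes with a mean of at least 50 and in the absence of a library that stands apart. The simulation gave every gene the same spread between libraries beyond read sampling, a set value not estimated from these data. Real genes differ in this spread, so these shares may overstate what the fit could detect here.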

Additional observations from a re-analysis of the deposited data

How the results depend on the processing

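Over 15 alternative settings no claudin was called in 14, and with library weights 1 was, cldn11b (log2 fold change -0.68, limma adjusted p = 0.0371). Over all genes that setting called 217 higher and 112 lower, against 6 and 0. The same setting called slc2a12 (-0.61, limma adjusted p = 0.0467; -0.68 to -0.60 with 1 library left out). Claudins higher at an unadjusted p of 0.05 numbered 1 without the trend and 0 to 2 with 1 library left out, against 2. The lower ones numbered 1 without the trend or with equal library totals and 1 to 4 with 1 library left out, against 3. The count over all 26082 genes, in either direction, also moved with the setting. It was 3377 without the trend, 4588 with equal library totals and 2248 to 4618 with 1 library left out, against 4154. Claudins without overlap numbered 1 lower with equal totals, against 4, and 2 higher in both. With equal totals 5.06% of all genes were lower and 20.0% higher without overlap. With 1 library left out the claudins without overlap numbered 5 to 7 lower and 2 to 3 higher. There 13.3% to 17.1% of all genes were lower and 14.5% to 18.4% higher, since smaller groups overlap less often. Equal totals moved the medians to -0.0061 for claudins, 0.17 for tight junction partners and 0.11 for the adherens junction list. Library weights moved that of the partners to -0.00047. With 1 library left out these medians were -0.17 to -0.06, 0.0056 to 0.10 and -0.043 to 0.047. Equal totals shift every gene upward in morphants. The other causes were not tested.

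Of 401 fits of single claudins, 368 gave the same direction and side of the threshold, 1 passed it and 32 changed sign, in 13 genes whose log2 fold changes were at most 0.27 in size. With equal totals the new values were 0.10 for cldn12, 0.044 for cldnb, 0.0052 for cldn7b, 0.059 for cldnc, 0.10 for cldn11a and 0.044 for cldn15a. With library weights they were 0.11 for cldng, 0.10 for cldnc and -0.12 for cldn1. With 1 library left out the ranges were -0.58 to 0.076 for cldng, -0.043 to 0.025 for cldn12, -0.21 to 0.023 for cldnb, -0.12 to 0.14 for cldn5b, -0.16 to 0.062 for cldnc, -0.078 to 0.045 for cldn11a, -0.17 to 0.089 for cldn15a and -0.12 to 0.11 for cldn15lb. They were -0.17 to 0.20 for cldn1, -0.54 to 0.069 for cldn10l2, -0.091 to 0.23 for cldn2 and -0.71 to 0.084 for cldn10.

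Same-numbered pools of the groups correlated in their deviations at 0.10, -0.06 and 0.12, so the replicate numbers were not taken as pairs. With the replicate number as a block 0 claudins were called, with 2 higher and 2 lower at an unadjusted p of 0.05. Of all 26082 genes that setting called 2 higher and 0 lower, and 4255 lay under that unadjusted p. Chosen after seeing the data were all 41 claudin rows (0 called, 3 higher and 3 lower at an unadjusted p of 0.05), the 23 claudins with a mean of at least 10 (median -0.07) and the pore-forming claudins without cldn17 (median -0.07). In the main fit 15.9% of all genes lay under an unadjusted limma p of 0.05. Values under 10 rest on a few reads.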
